A study of Mus musculus with 6 samples.

Results

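Motile cilium genes were examined in the spinal cord of mice whose astrocytes lack Sox2, a transcription factor gene of neural stem cells and glia. The genes were chosen by name. Protein-coding genes whose symbol starts with Dnah, Cfap, Rsph, Tekt, Dnaic, Dnaaf, Drc or Spef and continues with a digit were taken, together with Foxj1, and 67 of the 70 such genes had a summed count of at least 30 over the 6 libraries. The other 3 were Cfap97d1, Rsph6a and Tekt3, with summed counts of 22, 25 and 6. The table held 35275 genes in all.

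The 3 Sox2 cKO mice carried mGfap-Cre, a Cre recombinase under the mouse Gfap promoter, and the floxed Sox2 fl/fl allele. The 3 Ctrl mice are described differently by the sources, as mGfap-Cre:Sox2+/+ in the sample labels, as carriers of either mGfap-Cre or Sox2fl/fl in the design text, and as Sox2 fl/fl littermates in the methods, so the Cre status of a single Ctrl mouse is not known. All mice were C57BL/6 and received no treatment named in the sources. Their age is postnatal day 90 in the sample labels and day 80 in the design text. The methods describe this Cre line as active in most astrocytes and as reported inactive in neural stem cells, and they do not report its activity in ependymal cells. Whole spinal cord was used, and fewer cells of a type and less RNA per cell cannot be told apart in such samples.

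Ependymal cells line the central canal of the spinal cord and carry motile cilia that move cerebrospinal fluid. The core of a motile cilium, the axoneme, is a ring of doublet microtubules around a central pair. Dynein arms on the doublets produce the beat, the radial spokes and the nexin-dynein regulatory complex transmit and limit it, and assembly factors put the dyneins together in the cytoplasm before transport. Foxj1 and the RFX factors switch on these genes in multiciliated cells. Several Cfap genes also act outside motile cilia, and the libraries hold all cells of the cord, so these values do not assign a transcript to ependymal cells.

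The libraries held 21507911 to 28392184 counted reads, and each is called by the number of its column. Libraries 2, 4 and 6 were Ctrl and libraries 1, 3 and 5 were Sox2 cKO. Levels are counts scaled to library size (CPM) after TMM, a scaling that evens out differences in library composition. Sox2, the deleted gene, had a log2 fold change of -2.86 (SE 0.24, adjusted p = 0.00096 in edgeR's quasi-likelihood test with Benjamini-Hochberg adjustment; SE is the standard error, taken from the test statistic), with 14.8 to 29.5 CPM in Ctrl and 2.69 to 3.16 CPM in Sox2 cKO libraries. Log2 fold changes over all tested genes fell with gene length (rank correlation, Spearman's rho, of -0.48 over 16137 genes, which are not independent replicates), so values from a fit with a correction for length are also given for the genes described most closely. The paper's methods give a lower bound of RNA integrity for all samples together and no value per library. Whether RNA quality has a part in the trend with length was not tested. The astrocyte markers were lower for 5 of 10 genes (against 12.4% of all tested genes), and for 2 of 10 with the length correction (against 6.99%), with a summed level of 8940 to 11200 CPM in Ctrl and 6760 to 7020 CPM in Sox2 cKO libraries. Their part in the results was not tested.

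Promoter sequences are shown for Dnah5 and Cfap20, which with Foxj1 were the motile cilium genes called in the comparison. RefSeq promoter windows on GRCm38.p6, 250 bases before to 50 bases after the annotated start, were given for 54 of the 67 genes, and Foxj1 was not among them. Each stretch is printed in the direction of its gene, from 250 to 21 bases before the start. Capitals mark GTTGCC or its reverse complement GGCAAC, a half-site of the X-box bound by RFX factors.
Dnah5, chr15:28203516-28203745, plus strand: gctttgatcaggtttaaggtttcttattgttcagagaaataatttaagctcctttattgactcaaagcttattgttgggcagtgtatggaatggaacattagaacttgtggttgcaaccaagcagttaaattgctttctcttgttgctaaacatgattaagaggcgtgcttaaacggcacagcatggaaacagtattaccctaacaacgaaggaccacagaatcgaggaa
Cfap20, chr8:95434890-95435119, minus strand: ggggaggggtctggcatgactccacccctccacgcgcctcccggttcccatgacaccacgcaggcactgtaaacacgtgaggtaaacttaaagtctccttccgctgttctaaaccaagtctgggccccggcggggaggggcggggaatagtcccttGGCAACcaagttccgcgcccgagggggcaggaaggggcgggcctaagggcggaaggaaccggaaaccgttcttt
The X-box half-site was found in the window of Cfap20 and not in that of Dnah5. Over both strands it was present in 23 of the 54 windows of motile cilium genes (42.6%), against 3423 of 27025 promoter windows (12.7%) and 13.0% of the windows of tested genes. In a separate list of other motile cilium genes it was present in 16 of 31 windows (51.6%). A forkhead motif, GTAAACA on either strand, was present in 3 of the 54 windows (5.56%, against 3.52% of all windows and 2.44% of those of tested genes). A SOX motif, ACAAAG on either strand, was present in 9 (16.7%), which lies between its share of all windows (18.7%) and of those of tested genes (13.5%). The 3 motifs do not contain one another. Neighbouring genes on opposite strands can share part of a window, and a match is a description of the letters and not a binding site.

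The half-site is shown with 11 bases on each side for the genes picked by the rule for named genes that had it before the start in their window, with the match nearest the start where there were several. These genes encode dynein heavy and intermediate chains, a central apparatus protein and proteins of the cilium with other roles. Capitals again mark the half-site.
Cfap20, 94 bases before the start, chr8:95434958-95434963: aatagtcccttGGCAACcaagttccgcg
Cfap298, 60 bases before the start, chr16:90934904-90934909: ctgttgcccctGGCAACagccacttccg
Cfap74, 116 bases before the start, chr4:155409074-155409079: agaatcgtctgGGCAACagtcagctttg
Dnah7b, 163 bases before the start, chr1:46066690-46066695: acaggagcacaGTTGCCacccaccctta
Dnah10, 20 bases before the start, chr5:124725065-124725070: gcgctggcgccGTTGCCcaggtccccgt
Dnaic2, 26 bases before the start, chr11:114727393-114727398: cagggttgctaGGCAACtggtaaactcc
The stretch of Cfap298 also holds the half-site in the other orientation 69 bases before the start, and the window of Cfap298 holds 4 in all. The genes with the half-site include one that was higher (Cfap20) and several with fold changes on either side of 0, as given below for each.

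Of the 67 motile cilium genes, 61 passed edgeR's filter on low counts and were tested. The genes that did not pass were Cfap221, Cfap53, Cfap58, Dnaaf1, Dnah14 and Rsph14, each with a mean count under 10 per library. In Sox2 cKO spinal cord 1 of the 61 was higher (Cfap20) and 2 were lower (Foxj1 and Dnah5) at an adjusted p-value below 0.05, which is 4.92% of those tested. The background was 24.6%, since 3970 of the 16137 tested genes were called, 12.2% higher and 12.4% lower. DESeq2 called the same 3 genes, where 28.1% of all genes with an adjusted p-value were called. The median log2 fold change of the 61 genes was -0.13, against 0.02 for all tested genes, and 35 of the 61 were below 0 (48.0% of all tested genes were). The levels of the groups did not overlap for 16 of the 61 genes, 11 lower and 5 higher in Sox2 cKO (26.2%, against 44.7% of all tested genes).

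Motile cilium genes were counted less deeply than most genes, which limits what these counts can show. The median of their mean counts was 96.2 reads per library, against 460.0 for all tested genes. The median standard error of the log2 fold change was 0.22, against 0.12. For 46 of the 61 genes the 95% interval of the log2 fold change lay between -1 and 1, and for 9 it lay between -0.5 and 0.5. An unadjusted p-value below 0.05 was reached by 11 of the 61 genes (18.0%, against 39.6% of all tested genes).

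**Figure D1:**
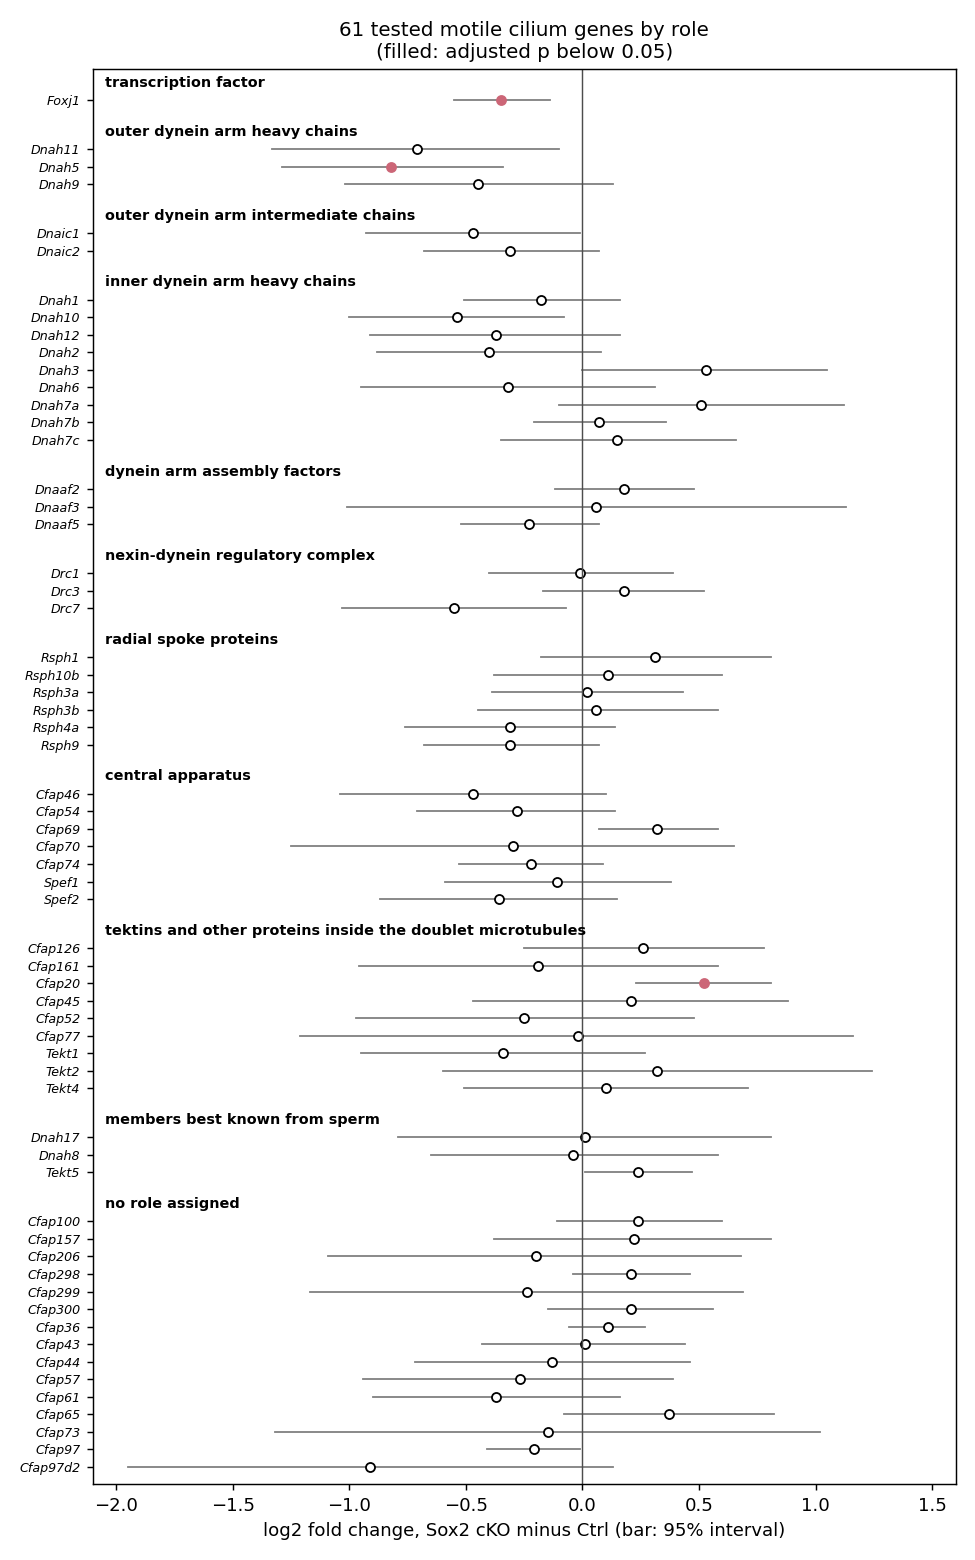
Log2 fold change of each of the 61 tested motile cilium genes (x axis, Sox2 cKO minus Ctrl, n = 3 each), grouped by role on the y axis, with its 95% interval as a bar. Foxj1, Dnah5 and Cfap20 are filled because their adjusted p-values from edgeR were below 0.05, and most other intervals cross 0.

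Foxj1 (ENSMUSG00000034227, chromosome 11 of mm10, 116330704 to 116335399), the forkhead transcription factor needed for motile cilia, was lower in Sox2 cKO spinal cord. Its level was 38.4, 42.9 and 46.2 CPM in Ctrl libraries 2, 4 and 6 and 32.6, 33.2 and 34.5 CPM in Sox2 cKO libraries 1, 3 and 5. All 3 Sox2 cKO levels were under the lowest Ctrl level. The mean fell by 21.3%, from 42.5 ± 3.96 to 33.4 ± 0.992 CPM (SD, n = 3), a log2 fold change of -0.35 (SE 0.09, edgeR adjusted p = 0.025). It was -0.43 with the length correction (edgeR adjusted p = 0.024). Foxj1 was the only one of the 3 called genes to keep its call there. It lost it when library 4, 6, 1, 3 or 5 was left out, with adjusted p-values from 0.052 to 0.095 in edgeR and log2 fold changes from -0.28 to -0.37, while without library 2 the adjusted p-value was 0.0034. In DESeq2 Foxj1 was called without library 2, 1 or 5 and not without library 4, 6 or 3. Its level per length, 14.4 FPKM (the authors' reads scaled by gene length and library size) over the 6 libraries, was the fourth highest among the 67 genes, after Cfap36, Cfap298 and Cfap20.

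The outer dynein arms, whose heavy chains are the main motors of the ciliary beat, were represented by Dnah5, Dnah9 and Dnah11. Dnah5 (ENSMUSG00000022262, chromosome 15, 28203752 to 28472052) had 5.25, 7.73 and 9.61 CPM in Ctrl libraries 2, 4 and 6 and 3.78, 4.57 and 4.42 CPM in Sox2 cKO libraries 1, 3 and 5. The groups did not overlap, and the Ctrl libraries differed among themselves more than the Sox2 cKO libraries did. The mean fell by 43.3%, from 7.53 ± 2.19 to 4.26 ± 0.421 CPM (SD, n = 3), a log2 fold change of -0.82 (SE 0.21, edgeR adjusted p = 0.024). With the length correction its log2 fold change was -0.33 (adjusted p = 0.19), and the call was also lost without library 4, 6, 1 or 3, with adjusted p-values from 0.062 to 0.098 in edgeR and log2 fold changes from -0.61 to -0.87. DESeq2 kept the call of Dnah5 without library 2, 4, 1, 3 or 5 and lost it without library 6.

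Dnah11, whose loss causes a ciliary motility disorder in humans, had 1.84, 2.37 and 3.28 CPM in Ctrl and 1.76, 1.16 and 1.66 CPM in Sox2 cKO libraries, with no overlap. Its log2 fold change was -0.71 (SE 0.28, edgeR adjusted p = 0.084), and it was called lower without library 2 (-0.89, edgeR adjusted p = 0.035). The edgeR fit without library 2 called 3030 higher and 3089 lower of 16590 tested genes, against 1962 and 2008 of 16137 with all libraries. This holds for each gene below that was called without library 2. Dnah9, a further outer arm heavy chain, had 3.63, 6.86 and 6.81 CPM in Ctrl and 3.12, 4.67 and 4.84 CPM in Sox2 cKO libraries. Library 2 was as low as the Sox2 cKO libraries, and the log2 fold change was -0.45 (SE 0.26, edgeR adjusted p = 0.23). Without library 2, Dnah9 was called lower (-0.69, adjusted p = 0.026). With the length correction the log2 fold changes of Dnah11 and Dnah9 were -0.24 and 0.01.

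The intermediate chains of the outer arms, which anchor and regulate the motors, are encoded by much shorter genes. Dnaic1 had 4.80, 3.70 and 6.08 CPM in Ctrl and 4.0, 3.27 and 3.25 CPM in Sox2 cKO libraries. The groups overlapped through Ctrl library 4, and the log2 fold change was -0.47 (95% interval -0.93 to -0.01, adjusted p = 0.12 from edgeR). Dnaic2 had 4.49, 4.86 and 5.94 CPM in Ctrl and 4.35, 3.72 and 4.31 CPM in Sox2 cKO libraries, without overlap, and a log2 fold change of -0.31 (95% interval -0.68 to 0.07, adjusted p = 0.21). With the length correction these were -0.57 and -0.36 (adjusted p = 0.088 and 0.17 from edgeR). Neither gene passed the test in either fit.

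**Figure D2:**
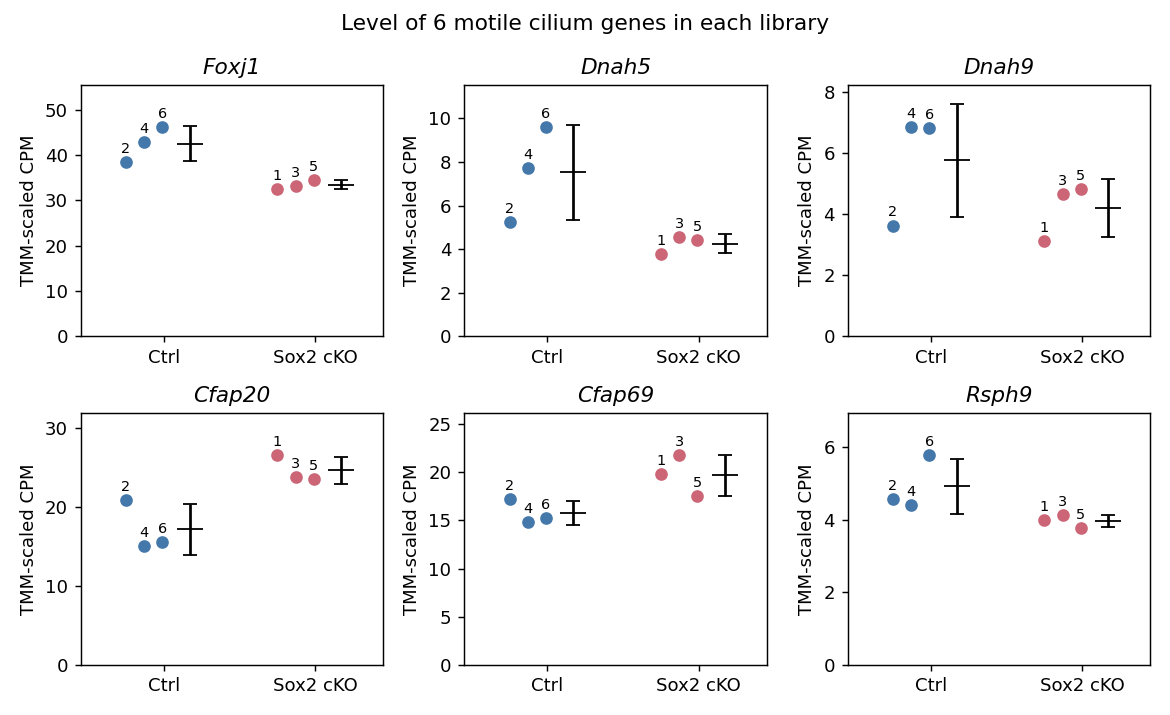
Level of 6 motile cilium genes in each library (y axis, TMM-scaled CPM from 0; points carry the library number, and the bar beside them is the mean ± SD of 3 libraries). Foxj1 and Dnah5 were lower and Cfap20 higher in every Sox2 cKO library than in any Ctrl library, whereas Ctrl library 2 lay among the Sox2 cKO libraries for Dnah9.

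The inner dynein arms, which shape the bend of the cilium, were represented by 9 heavy chain genes, all tested and none called. The smallest adjusted p-value was that of Dnah10, and 2 of the 9 had an unadjusted p-value below 0.05. Their median log2 fold change was -0.18, with 5 genes below 0 and 4 above. Dnah10 had 3.90, 4.20 and 5.6 CPM in Ctrl and 2.64, 3.04 and 3.70 CPM in Sox2 cKO libraries, with no overlap and a log2 fold change of -0.54 (SE 0.21, edgeR adjusted p = 0.078), and it was called without library 2 (-0.64, adjusted p = 0.046). In the fit with the length correction Dnah10 was at -0.10 (edgeR adjusted p = 0.75). In the other direction, Dnah3 had 1.88, 1.62 and 1.26 CPM in Ctrl and 2.42, 2.46 and 2.0 CPM in Sox2 cKO libraries, also with no overlap (0.53, SE 0.23, edgeR adjusted p = 0.12), and was at 0.93 with the length correction (edgeR adjusted p = 0.051). Dnah3 shares 10.5% of its exon bases with Lyrm1 on the opposite strand, and whether reads were counted by strand is not stated, so reads of the 2 genes may be mixed. Dnah3 falls outside the rule for named genes and was singled out after its values were seen.

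Dnah7b had the highest level per length among the inner arm genes, at 0.967 FPKM, with 11, 11.5 and 12.3 CPM in Ctrl and 13.0, 13.2 and 10.4 CPM in Sox2 cKO libraries. The groups overlapped, and its log2 fold change was 0.07 (95% interval -0.21 to 0.36, adjusted p = 0.70 from edgeR) and 0.49 with the length correction (edgeR adjusted p = 0.054). Dnah7a, Dnah7b and Dnah7c are near-identical copies, so reads may have been split between them or dropped. Dnah1 and Dnah6, the next by level per length, had log2 fold changes of -0.18 and -0.32 (adjusted p = 0.40 and 0.43 from edgeR). For Dnah6, library 6 had 7.29 CPM and the other 5 libraries had 3.40 to 4.66 CPM, and without library 6 the log2 fold change was 0.11.

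Gene length was tied to these values. The 14 tested heavy chain genes had a median length of 13288 bases, against 3060 for all tested genes, and a median log2 fold change of -0.25 with 9 genes below 0. In the fit with the length correction their median was 0.19 with 4 genes below 0, and 0 were called by edgeR, where 13.1% of all tested genes were called and 4 heavy chains had an unadjusted p-value below 0.05. Over all 61 genes the median was -0.13 without and -0.10 with the correction, with 37 genes below 0 in the corrected fit (49.8% of all tested genes were). That fit called 1 motile cilium gene higher, Cfap69, and 2 lower, Foxj1 and Rsph9, where 6.08% of all tested genes were called higher and 6.99% lower. The direction of the heavy chains as a group thus depended on the correction, while that of Foxj1, Dnaic1 and Dnaic2 did not. The rank correlation of length with log2 fold change over the 61 genes (Spearman's rho) was -0.28 before and 0.44 after the correction, a description over genes that share the same 6 libraries.

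**Figure D3:**
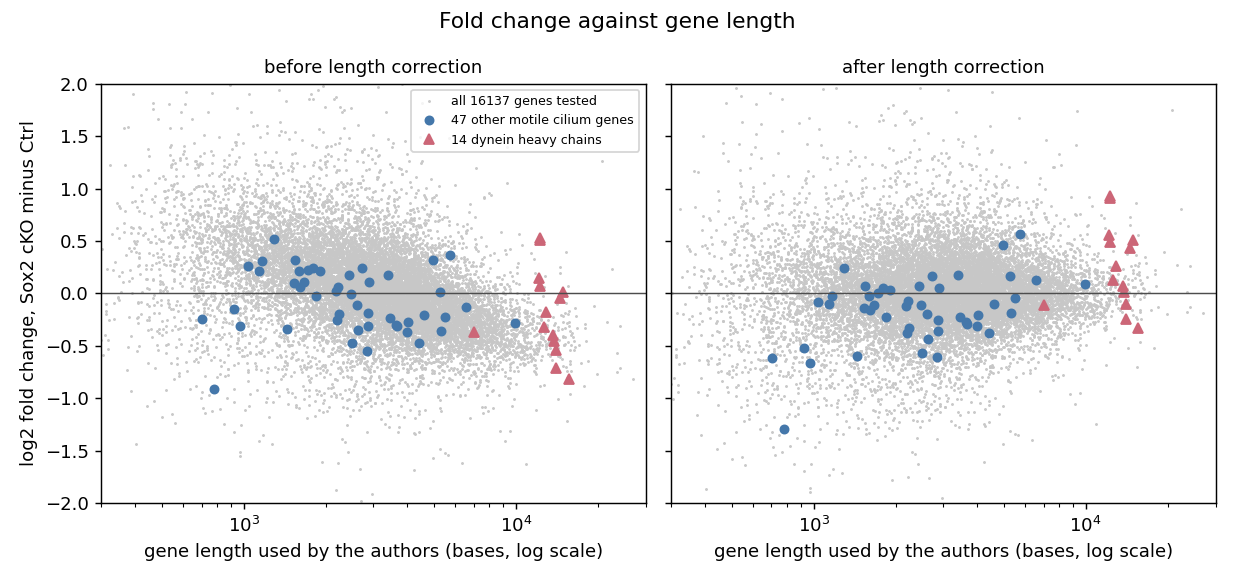
Log2 fold change (y axis, Sox2 cKO minus Ctrl) against the gene length used by the authors (x axis, bases, log scale), before and after the length correction, for all 16137 tested genes (grey), the 14 dynein heavy chains (triangles) and the 47 other motile cilium genes (circles). The heavy chains lie mostly below 0 before and mostly above 0 after the correction, with medians of -0.25 and 0.19, and genes beyond the plotted range are not drawn.

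Factors that assemble dynein arms in the cytoplasm were taken by the name Dnaaf only, and Dnaaf2, Dnaaf3 and Dnaaf5 were tested. None of the 3 was called or had an unadjusted p-value below 0.05. Dnaaf5 had 8.30, 8.56 and 8.35 CPM in Ctrl and 7.86, 6.38 and 7.33 CPM in Sox2 cKO libraries, without overlap, and a log2 fold change of -0.23 (95% interval -0.52 to 0.07, adjusted p = 0.23 from edgeR). Dnaaf2 had a log2 fold change of 0.18 (adjusted p = 0.34), and 32.7% of its exon bases lie opposite the noncoding gene 9330151L19Rik. Dnaaf3, at a mean of 18.7 reads per library, had a log2 fold change of 0.06 with a 95% interval from -1.01 to 1.13.

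In the nexin-dynein regulatory complex, which links neighbouring doublets, Drc1, Drc3 and Drc7 were tested and none was called, with 1 unadjusted p-value below 0.05. Drc7 had 2.06, 2.20 and 1.93 CPM in Ctrl and 1.36, 1.43 and 1.44 CPM in Sox2 cKO libraries, with no overlap. Its log2 fold change was -0.55 (SE 0.22, edgeR adjusted p = 0.087) and -0.61 with the length correction (adjusted p = 0.083). Drc1 and Drc3 had log2 fold changes of -0.01 (95% interval -0.40 to 0.39) and 0.18 (95% interval -0.17 to 0.52), and their groups overlapped.

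Radial spoke genes, whose proteins carry signals from the central pair to the dynein arms, had a median log2 fold change of 0.04 over 6 tested genes, and none was called. None had an unadjusted p-value below 0.05. Rsph9, a spoke head protein gene, had 4.58, 4.41 and 5.79 CPM in Ctrl and 4.0, 4.13 and 3.78 CPM in Sox2 cKO libraries. All 3 Sox2 cKO levels of Rsph9 were under the lowest Ctrl level, with a log2 fold change of -0.31 (95% interval -0.68 to 0.07, adjusted p = 0.20 from edgeR). With the length correction Rsph9, which is 966 bases long, was called lower at -0.66 (adjusted p = 0.037). Rsph1, another spoke head gene, had 2.78, 3.33 and 4.63 CPM in Ctrl and 5.27, 3.72 and 4.34 CPM in Sox2 cKO libraries, which overlapped, and a log2 fold change of 0.31 (95% interval -0.18 to 0.81). Rsph3a and Rsph3b are close copies, and their log2 fold changes were 0.02 and 0.06.

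Genes of the central apparatus, which surrounds the central pair, had 6 of 7 tested members below 0 and a median log2 fold change of -0.28. None was called, with 1 unadjusted p-value below 0.05. In the fit with the length correction 5 of the 7 were below 0, and the median was -0.19. The exception in direction without the correction was Cfap69, the gene of highest level per length in the group at 3.60 FPKM. It had 17.2, 14.8 and 15.3 CPM in Ctrl and 19.8, 21.8 and 17.5 CPM in Sox2 cKO libraries, so all 3 Sox2 cKO levels exceeded the highest Ctrl level. Its log2 fold change was 0.32 (SE 0.11, edgeR adjusted p = 0.061) and 0.46 with the length correction, where it was called (adjusted p = 0.035), as it was with upper quartile scaling (adjusted p = 0.046) and without library 2 (adjusted p = 0.026). Cfap46 had the third largest fall among the genes with a mean count of at least 50, with 4.04, 4.53 and 8.11 CPM in Ctrl and 3.60, 4.54 and 3.82 CPM in Sox2 cKO libraries. Library 6 alone was high, the log2 fold change was -0.47 (SE 0.26, edgeR adjusted p = 0.20), and without library 6 it was -0.10. Spef1, a microtubule-bundling protein gene, and Cfap74 had log2 fold changes of -0.11 and -0.22 (adjusted p = 0.75 and 0.26 from edgeR).

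Tektins and other proteins that line the inside of the doublet microtubules included Cfap20, the one motile cilium gene that was higher. Cfap20 (ENSMUSG00000031796, chromosome 8, 95420249 to 95434869) had 20.9, 15 and 15.6 CPM in Ctrl libraries 2, 4 and 6 and 26.6, 23.8 and 23.6 CPM in Sox2 cKO libraries 1, 3 and 5. The groups did not overlap. The mean was 17.2 ± 3.20 CPM in Ctrl and 24.7 ± 1.67 CPM in Sox2 cKO (SD, n = 3), a ratio of 1.43 in the fit and a log2 fold change of 0.52 (SE 0.13, edgeR adjusted p = 0.021). Cfap20 is 1292 bases long, and with the length correction its log2 fold change was 0.24 (adjusted p = 0.12). The call was also lost without library 4, 6, 1 or 3, with adjusted p-values from 0.057 to 0.096 in edgeR and log2 fold changes from 0.43 to 0.54. DESeq2 kept the call of Cfap20 without library 2, 6, 3 or 5 and lost it without library 4 or 1. Cfap126 and Tekt4, the next of the group by level per length, had log2 fold changes of 0.26 (95% interval -0.25 to 0.78) and 0.10 (95% interval -0.51 to 0.71). The median over the 9 tested genes was 0.10, and 4 of them were below 0.

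Members best known from sperm tails were Tekt5, Dnah8 and Dnah17. Tekt5 stood out in level, at 13.8 FPKM, whereas Tekt1, Tekt2 and Tekt4 were at 0.397 to 0.938 FPKM. It had 25.5, 20 and 22.6 CPM in Ctrl and 25.5, 27.5 and 27.5 CPM in Sox2 cKO libraries, and a log2 fold change of 0.24 (SE 0.10, edgeR adjusted p = 0.12), and it was called without library 2 (adjusted p = 0.022). Its log2 fold change was 0.05 with the length correction (edgeR adjusted p = 0.74). Dnah8 and Dnah17 were at 0.128 and 0.0761 FPKM, with log2 fold changes of -0.04 and 0.01 that became 0.43 and 0.51 with the correction (edgeR adjusted p = 0.26 and 0.34). Spermatid markers were near 0 in these libraries, with Prm1 at 0.166 to 0.416 CPM, Tnp1 and Akap4 at 0 in all 6 libraries, and Prm2, Tnp2 and Odf1 at 0.125 CPM or below. The source of the Tekt5 level was not tested.

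A further 17 Cfap and Dnah genes were in none of the role lists used here, which does not mean that they have no known role. Of these 15 were tested and none was called, with 1 unadjusted p-value below 0.05. Cfap36 had the highest level per length of all 67 genes, at 62.3 FPKM. It had 102.0, 101.0 and 95.9 CPM in Ctrl and 107.0, 112.0 and 103.0 CPM in Sox2 cKO libraries, and its log2 fold change of 0.11 had a 95% interval from -0.06 to 0.27 (adjusted p = 0.30 from edgeR). Cfap298 (19.9 FPKM) and Cfap97 (8.48 FPKM) had log2 fold changes of 0.21 and -0.21 (adjusted p = 0.19 and 0.11). The group was otherwise low, with a median of 0.802 FPKM. Cfap65, among the 3 largest rises of the well-counted genes, had a log2 fold change of 0.37 with overlapping groups (adjusted p = 0.20 from edgeR).

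One Ctrl library was set apart for these genes. Among the 38 tested genes with a mean count of at least 50, library 6 had the highest level for 20 (52.6%), whereas it was highest for 22.7% of the 13323 tested genes counted as deeply. Among the 3 Ctrl libraries it was the highest for 25 of the 38 genes (65.8%, against 31.3% of all such genes). The median of the 38 genes, each taken relative to its own mean over the 6 libraries on the log2 scale, was 0.25 in library 6 and between -0.05 and 0.05 in the other 5 libraries. For the 7 heavy chains among them the median was 0.55 in library 6. In the list of other motile cilium genes library 6 was highest for 4 of 19 genes (21.1%), with a median of 0.08. Without library 6 the median log2 fold change of the motile cilium genes was 0.02 in place of -0.13. Of them 0 were then called by edgeR and 1, Cfap20, by DESeq2. Calls over all genes also fell without library 6, to 602 higher and 480 lower of 16552 in edgeR and to 1011 and 1265 in DESeq2. Without library 4, 1 or 3 edgeR likewise called 0 motile cilium genes.

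**Figure D4:**
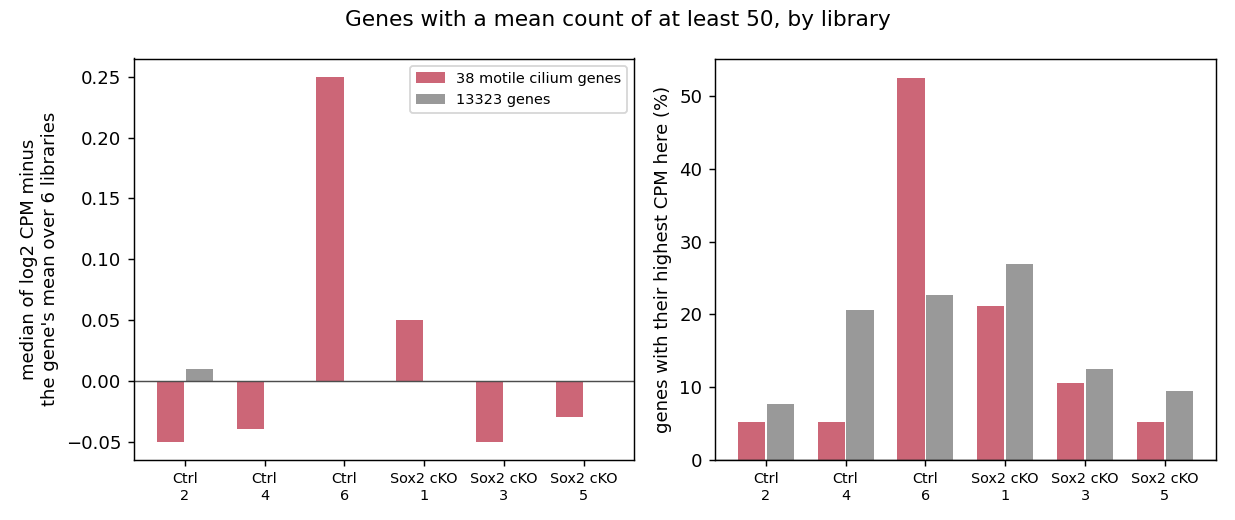
Left, median over genes of log2 CPM minus the gene's own mean over the 6 libraries (y axis, log2 units); right, share of genes with their highest CPM in each library (y axis, percent). Both compare the 38 motile cilium genes with a mean count of at least 50 with all 13323 such genes, and library 6 (Ctrl) stands at 0.25 and 52.6% for the motile cilium genes.

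Other motile cilium genes that the naming rule does not reach include docking, ruler and central pair genes with Ccdc, Spag or other names. Of the 41 listed genes 39 were tested, with a median log2 fold change of 0.03. edgeR called 1 higher and 1 lower (5.13%, against 24.6% of all tested genes). These genes were also counted less deeply, with a median mean count of 43.7 reads per library, against 460.0 for all tested genes. Hydin, a large central pair protein gene, was lower, with 2.24, 4.12 and 3.72 CPM in Ctrl and 1.71, 1.91 and 1.55 CPM in Sox2 cKO libraries (log2 fold change -0.96, SE 0.26, edgeR adjusted p = 0.025). The groups of Hydin did not overlap. Hydin is 15783 bases long, and with the length correction it was at -0.46 and was not called (edgeR adjusted p = 0.17). Hydin lost its call without library 4, 6, 1, 3 or 5 (edgeR adjusted p from 0.061 to 0.12).

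Apart from Hydin and the gene called higher, the largest changes in that list at a mean count of at least 50 were not called. Mns1 and Ak7 had log2 fold changes of -0.62 and -0.34 (adjusted p = 0.085 and 0.20 from edgeR), each with all 3 Sox2 cKO levels under the lowest Ctrl level. Ccdc151 and Ccdc39, a docking complex gene and a gene of the ruler that sets the axonemal repeat, had log2 fold changes of 0.60 and 0.37 (adjusted p = 0.10 and 0.058 from edgeR), each with all 3 Sox2 cKO levels over the highest Ctrl level. Without library 2, Mns1 was called lower (edgeR adjusted p = 0.038) and Ccdc151 and Ccdc39 were called higher (edgeR adjusted p = 0.018 and 0.026). That fit called more genes in general, 3030 higher and 3089 lower of 16590 tested genes.

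Regulators of multiciliated cells were tested for 7 of 11 genes, and none was called by edgeR or DESeq2. One of the 7, Rfx3, had an unadjusted p-value below 0.05. Of the 7 genes 3 were below 0 and 4 above, with a median log2 fold change of 0.0. Rfx3 and Rfx2, which bind the X-box, had all 3 Sox2 cKO levels under the lowest Ctrl level. The groups thus did not overlap for 28.6% of the 7, against 44.7% of all tested genes. Rfx1, the other RFX gene listed, had a log2 fold change of 0.26 with overlapping groups (edgeR adjusted p = 0.17). Gmnc and Myb were at 0.86 and 0.55, also with overlap (edgeR adjusted p = 0.29 and 0.39). Rfx3 had 16.7, 16.2 and 19.9 CPM in Ctrl and 13.2, 15.6 and 14.8 CPM in Sox2 cKO libraries (log2 fold change -0.28, adjusted p = 0.11 from edgeR). With the length correction Rfx3, which is 9146 bases long, was at 0.06. Rfx2 had 2.78, 3.41 and 2.46 CPM in Ctrl and 1.98, 2.29 and 2.34 CPM in Sox2 cKO libraries (-0.39 in both fits, adjusted p = 0.19 and 0.22). Genes of the multiciliation programme that act while cilia are made were at very low levels, with Mcidas, Ccno, Deup1 and Gmnc at or below 0.793 CPM in every library and Foxn4 and Cdc20b at 0 in 5 and 4 of the 6 libraries.

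Genes known from ependymal cells that the naming rule does not reach were used to check the tissue. Some of them may also encode parts of the axoneme, so this check is not independent of the motile cilium genes. Of 13 such genes 12 were tested, and edgeR called 1 lower and none higher (8.33%, against 24.6% of all tested genes). Of the 12, 8 were above 0 and 4 below, where 48.0% of all tested genes were below. With the length correction 4 were above 0 and 8 below, where 49.8% of all tested genes were below. The median log2 fold change was 0.09 without and -0.08 with that correction. DESeq2 called 1 lower and 1 higher, Cd24a, a surface protein gene that was at 85.6, 86.6 and 101.0 CPM in Ctrl and 116.0, 120.0 and 99.0 CPM in Sox2 cKO libraries (log2 fold change 0.30, adjusted p = 0.052 in edgeR and 0.039 in DESeq2). Fam183b had 1.35, 0.54 and 1.11 CPM in Ctrl and 1.93, 2.32 and 1.62 CPM in Sox2 cKO libraries, without overlap (log2 fold change 0.98, edgeR adjusted p = 0.054). With the length correction Cd24a and Fam183b were at 0.10 and 0.60 (edgeR adjusted p = 0.52 and 0.22). 1700012B09Rik and Rarres2 had log2 fold changes of 0.67 and 0.39 with overlapping groups (edgeR adjusted p = 0.25 and 0.21). Ccdc153, which marks multiciliated ependymal cells, was present at 2.95 to 4.88 CPM with a log2 fold change of 0.07 (95% interval -0.40 to 0.53). Vim, an intermediate filament gene of ependymal cells and glia, was at 59.9 to 69.8 CPM with a log2 fold change of 0.01 (95% interval -0.19 to 0.20). The gene that was lower was Nes, which encodes nestin and is also made by other cells of the cord, with 22.5, 29.6 and 29.4 CPM in Ctrl and 16.9, 13.6 and 13.7 CPM in Sox2 cKO libraries (log2 fold change -0.89, adjusted p = 0.012 from edgeR). Neurons that contact the cerebrospinal fluid beside the ependyma express Pkd2l1, which was at 13.8 to 18.4 CPM in Ctrl and 12.1 to 13.6 CPM in Sox2 cKO libraries (log2 fold change -0.26, edgeR adjusted p = 0.16). The other markers of these neurons were Pkd1l2, at 2.58 to 4.44 CPM in Ctrl and 1.49 to 2.35 CPM in Sox2 cKO libraries (-0.84, not called by edgeR at an adjusted p of 0.05, and called by DESeq2 at 0.034), and Myo3b at 0.17 (edgeR adjusted p = 0.71). The 6 markers of choroid plexus epithelium, a ciliated tissue of the brain, summed to 9.75 to 13.9 CPM in Ctrl and 9.41 to 12.5 CPM in Sox2 cKO libraries, and none of the 5 tested was called by edgeR or DESeq2 or had an unadjusted p-value below 0.05. Among them Kl was at 3.86 to 6.86 CPM, Clic6 at 1.67 to 4.24 CPM and Ttr at 0.151 to 4.4 CPM, and Otx2 was at 0 in 5 of the 6 libraries. Hox genes of the spinal cord were present, with Hoxb8 at 228.0 to 256.0 CPM.

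Primary cilia, the nonmotile cilia of neurons and glia, share the transport machinery with motile cilia, and 9 of the 30 such genes were called (30%, beside the background of 24.6%). Lower were Ift172, Kif3a and Dync2h1, a transport adaptor and subunits of the motors, with log2 fold changes of -0.42, -0.44 and -0.35. Higher were Ift20, Ift22, Bbs2, Bbs5, Bbs7 and Dync2li1, with log2 fold changes from 0.34 to 0.88. In the fit with the length correction 3 of the 30 were called, Bbs2 and Bbs5 higher and Kif3a lower, where 13.1% of all tested genes were called. Their median mean count of 517 reads per library was deeper than that of the motile cilium genes, and no difference between the lists was tested.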

How the data were processed

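RNA-seq libraries of whole spinal cord were made from 3 Sox2 cKO and 3 Ctrl mice with a directional poly(A) kit. STAR 2.5 placed the single-end reads on mm10 and HTSeq 0.6.1 gave the raw counts per gene that the authors deposited, together with FPKM values. The strand setting of the counting is not given in the sources used here. The numbered columns match no sample name. They were assigned to groups by the mouse numbers of a protein blot in the paper, and group means computed from them matched the authors' means for 1999 of 1999 genes (within a relative difference of 0.001; 0 matched with the groups exchanged). There were 0 columns left unused. Each group held 2 females and 1 male, per the methods, and no library was assigned a sex. Nothing in the labels ties a column to a mouse, so p-values measure the spread between these libraries. No library was a copy of another (chi-square of at least 7.165 per degree of freedom for every pair).

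Symbols, positions and types came from GENCODE M21 (GRCm38, the build of mm10) for 34490 of 35275 identifiers. The main test was that of edgeR 4.0.16 in R 4.3.3 (filterByExpr, TMM, quasi-likelihood test, no covariates) over 16137 genes, with Benjamini-Hochberg adjustment at 0.05. Exact permutation of 3 against 3 cannot give p below 0.1. The length correction fitted a lowess curve (span 0.3) of log counts against gene length in each library and used it as an offset. Other alternatives were DESeq2 1.42.0, upper quartile scaling, other count filters, a summed count of at least 300, limma 3.58.1 on log2 FPKM with pseudocounts of 1 and 0.1 (mean FPKM of at least 0.5), and each library left out. The fits were tested on simulated data with 200 known changes. The main fit recovered 99.5% of them, and 4.8% of its calls were false. With a length trend added to the simulated data, 90.6% of the calls of the main fit were false, against 7.5% with the length correction. The added trend had a fixed size that was not fitted to these data.

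The genes, the role lists and the tests were chosen with earlier results of these data known. The named genes are Foxj1, Sox2, the 3 of highest mean FPKM in each role group, each called gene, and the 3 largest rises and falls with a mean count of at least 50, here and among other motile cilium genes. Genes of other lists were named after their values were seen. One gene of the list of other motile cilium genes is counted but not reported by name here.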

Additional observations from a re-analysis of the deposited data

How the results depend on the processing

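No paired analysis was possible because the deposited columns carry no replicate numbers. The alternatives were fixed with earlier results of these data known, and leaving out a library in DESeq2 was added after seeing the data. The named genes kept their direction and side of the threshold with DESeq2 (40 of 40 genes), with no filter (40 of 40) and with at least 10 counts in every library (39 of 39). With a summed count of at least 300 the calls were the same, 1 higher and 2 lower.

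Motile cilium genes called higher, 1 in the reported fit, numbered 2 with upper quartile scaling, 2 with limma on log2(FPKM + 1), 0 to 3 in the edgeR fits without a library and 0 to 3 in the DESeq2 fits without one. Those called lower, 2 in the reported fit, numbered 0 with limma at either pseudocount, 0 to 5 in the edgeR fits without a library and 0 to 3 in the DESeq2 fits without one. The edgeR counts were 0 and 0 without library 4, 6, 1 or 3, where that tool called from 3 higher and 5 lower to 698 higher and 661 lower of all genes, and the unadjusted p-value was below 0.05 for 4758 to 5306 genes. Over all genes, upper quartile scaling called 2313 of 16137 higher. Limma on log2(FPKM + 1) called 2670 of 14756 higher, and limma at pseudocounts of 1 and 0.1 called 915 and 896 lower. Without library 2 edgeR called 3030 higher and 3089 lower of 16590, and without library 5 1329 and 1336 of 16339. The DESeq2 fits without a library called 891 to 2609 higher and 1105 to 2998 lower. The median log2 fold change of the motile cilium genes ranged from -0.21 to 0.02 in the fits without a library. It was 0.06 and 0.13 with limma on log2(FPKM + 1) and log2(FPKM + 0.1), where only 39 of the genes were tested. The heavy chain median was 0.19 with the length correction. With limma only 1 heavy chain, Dnah7b, was tested, so no median is given.

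In the list of other motile cilium genes, those called higher (1) numbered 2 with upper quartile scaling, 3 with limma at either pseudocount, 0 with the length correction and 0 to 3 without a library. Those called lower (1) numbered 0 with limma at either pseudocount, 0 with the length correction and 0 to 2 without a library. Primary cilium genes called higher (6) numbered 11 with limma at either pseudocount, 2 with the length correction and 0 to 9 without a library. Those called lower (3) numbered 1 with the length correction and 0 to 4 without a library. The causes of these changes were not tested.

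The sign reversed with the length correction for Dnaaf3 (-0.07), Dnah1 (0.26), Dnah6 (0.13), Dnah8 (0.43), Cfap36 (-0.11), Cfap298 (-0.10), Dnah9 (0.01), Rsph1 (-0.02), Rsph3b (-0.16), Cfap126 (-0.08) and Tekt4 (-0.14). It reversed with upper quartile scaling for Dnah8 (0.01) and Drc1 (0.04), and with limma for Drc1 (0.06 and 0.09 at pseudocounts of 1 and 0.1). None of these genes was called in either fit. Without a library the log2 fold change ranged from -0.35 to 0.05 for Spef1, -0.36 to 0.40 for Dnaaf3, -0.51 to 0.11 for Dnah6, -0.19 to 0.29 for Dnah8, -0.26 to 0.21 for Dnah17, -0.12 to 0.09 for Drc1, -0.07 to 0.27 for Rsph3b and -0.10 to 0.29 for Tekt4.

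Foxj1 had adjusted p-values of 0.053 and 0.054 with limma at pseudocounts of 1 and 0.1 (log2 fold changes -0.23 and -0.24). Low counts limit precision most for the 23 tested genes with a mean count under 50.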
